A study of Arabidopsis thaliana with 14 samples.

Results

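On an Affymetrix array, 29 of 22746 non-control probe sets had a higher mean signal in Arabidopsis thaliana roots 6 or 12 h after iron was withdrawn than on standard medium, and were back near the standard level at 24 h. They were chosen by their measured values. Later times were not part of the choice, but the standard arrays were. Of the 26 members tested, 5 (19.2%) were called higher than on standard medium at 48 h, beside 15.9% of all probe sets tested. In the other direction 4 (15.4%) were called lower, beside 15.6%. At 72 h the counts were also 5 and 4, beside 18.34% and 17.592%. These late counts share the standard arrays with the choice and compare arrays of different sets, so they are a description. At 6 h 1 member was called higher and at 12 h 2 were, beside 0.366% and 1.07% of all. The values at 6 and 12 h chose the members, so these 2 counts are a description. The mean of log2(signal + 16) had to lie at least 0.8 above that of standard medium at 6 h or 12 h, with both arrays of that time above both standard arrays and a mean signal of at least 100 at one of these times. At 24 h it had to lie less than 0.3 above standard medium. Members of 10 gene families named by symbol, and the gene AT1G60190, were to be left out, but 0 probe sets that met the other conditions carried these names. The platform table paired 16 members with 1 gene, 1 member with 2 genes and 12 members with none.

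Whole roots came from seedlings of the Columbia ecotype that had grown for 5 days on standard medium. They were measured after 3, 6, 12, 24, 48 and 72 h on medium without an iron salt but with 0.3 mM Ferrozine, a chelator of ferrous iron, and the control was moved to fresh standard medium for 3 h. The 7 groups had 2 arrays each, and each array held RNA pooled from about 320 roots, which the labels call a biological replicate. Only the 3 h group shares the control's time since transfer, so time since transfer and iron supply cannot be told apart at the later times. The labels place all harvests within 3 h on the sixth day of growth and also give 5 days before transfer, which cannot both hold at 48 and 72 h.

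A root that meets a change of medium responds on several time scales. Receptors at the cell surface and calcium signals act within minutes, transcripts of signalling and stress genes often rise and fall within hours, and the regulated uptake of iron builds up over a day or more. Iron uptake in Arabidopsis rests on bHLH transcription factors that raise genes for proton release, ferric reduction, ferrous iron transport and the secretion of coumarins that mobilise iron.

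The slower response was visible in the same arrays. Of 26 genes of iron uptake, regulation and storage, 11 probe sets were tested, and 1, 3, 4 and 9 of them were called higher at 3, 6, 12 and 24 h than on standard medium. A call means an adjusted p under 0.05 with limma over the 13648 probe sets above a filter on low signal. There were 9 other lists for context, on touch and wounding, jasmonate, ethylene, auxin, heat shock, abscisic acid, defence, the clock and mineral nutrition. The 10 lists held 180 genes, to which the table used paired 27 probe sets, and those on jasmonate, heat shock and nutrition had 0. No member was among these 27, which says little, since 12 members have no gene in the table and could match no list. In the 9 other lists 10 probe sets were tested in all. With limma 0 of them were called at 3, 6 or 12 h and 1 at 24 h, GH3.3, which encodes an enzyme that conjugates auxin and was chosen for mention after its values were seen.

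The arrays of 48 and 72 h stood apart from the other 10. Their 18 hybridisation spike-in probe sets had a geometric mean of 378 to 440, against 2172 to 3232 on the arrays of standard medium and 3 to 24 h. Array set and time cannot be told apart in any comparison of 48 or 72 h with an earlier group, because each group lay wholly within 1 set. The root hair markers EXPA7 and EXPA18 and the endodermis marker GSO1 had signal on all arrays. The summed signal of the 2 root hair probe sets was 2293 to 3345 on standard medium, 1387 to 1598 at 3 h, 1300 to 1458 at 6 h, 1268 to 1387 at 12 h and 1078 to 1385 at 24 h. That of the green tissue markers RCA and LHCB4.1 was 614 to 674 on standard medium, 700 to 764 at 3 h, 743 to 969 at 6 h, 704 to 1066 at 12 h and 641 to 1120 at 24 h. It was thus higher than on standard medium on all arrays of 3, 6 and 12 h, as was the members' geometric mean, and its part in the members' values was not tested. In whole roots, fewer cells of a type and less RNA per cell cannot be told apart.

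Most members were weakly expressed and lay above standard medium by a small amount. Their mean signal on standard medium had a median of 76.0, with a range of 38.8 to 1089, beside a median of 90.5 over all non-control probe sets, and 21 of 29 lay under 100. The larger of the differences at 6 and 12 h had a median of 0.88 on the log2 scale and a range of 0.80 to 1.24, and 23 of 29 lay under 1, that is below a doubling of signal + 16. Between the 2 arrays of one group, the median absolute log2 difference of the members was 0.36 for the standard arrays, 0.29 at 6 h, 0.38 at 12 h and 0.27 at 24 h. In single members it reached 1.36 at 6 h (AT5G17780) and 1.43 at 12 h (AT1G72860), each at the time when that member did not meet the conditions. Between the standard arrays, on which every rise rests, it was 1.16 in rps2 and slightly larger in AT3G60590. Such differences are as large as the rises that define the group.

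Over the 29 members together, the geometric mean signal was 97.4 and 86.6 on the standard arrays and 128 and 123 at 3 h. It was 166 and 149.9 at 6 h, 153 and 147 at 12 h, and 114 and 92.0 at 24 h. The arrays of 6 and 12 h were thus the highest, those of 3 h lay between them and the standard arrays, and those of 24 h spanned the level of the higher standard array. At 48 h it was 109 and 117, and at 72 h 100.5 and 101. The values at standard, 6, 12 and 24 h follow from the choice of members.

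**Figure D1:**
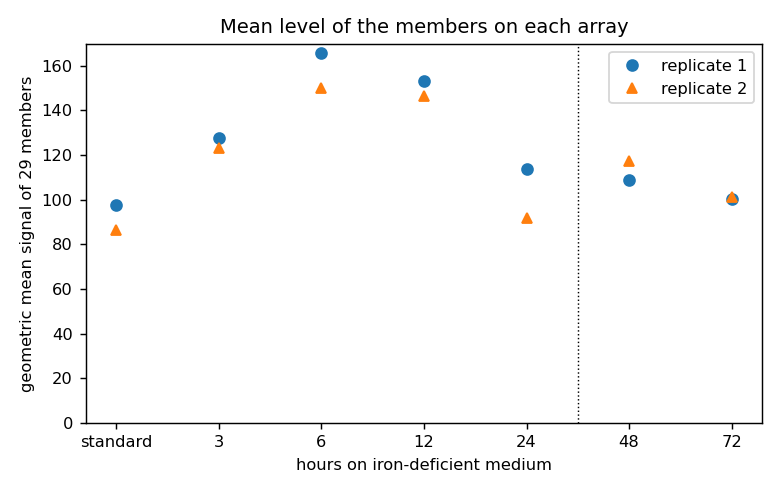
Geometric mean signal of the 29 members (vertical axis, linear signal) on each of the 14 arrays, by hours on iron-deficient medium, with circles for replicate 1 and triangles for replicate 2; the dotted line parts the 2 array sets. The 4 arrays of 6 and 12 h lie between 147 and 166, above the 2 standard arrays at 97.4 and 86.6 and the 2 arrays of 24 h at 114 and 92.0.

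The members fell into 16 that met the conditions at 6 h only, 11 that met them at 12 h only and 2 that met them at both times. In the 16 members of 6 h, the median log2 difference from standard medium was 0.38 at 3 h, 0.83 at 6 h, 0.43 at 12 h and 0.14 at 24 h, so the median at 12 h lay between those of 6 and 24 h. In the 11 members of 12 h, it was 0.32 at 3 h, 0.40 at 6 h, 0.90 at 12 h and 0.19 at 24 h. Of the 29 members, 26 passed the filter on low signal. With limma over all genes tested, 1 of them was called higher at 6 h and 2 were at 12 h, beside 0.366% and 1.07% of all probe sets called higher. At 24 h 0 of the 26 were called in either direction, beside 1.61% of all called higher and 2.01% called lower, and at an unadjusted p under 0.05 with limma the count was also 0. Since the same comparisons chose the members, these counts are given as a description. They were 267083_at at both times and 261474_at at 12 h, neither of which has a gene in the table used, so none of the members with a gene name was called.

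**Figure D2:**
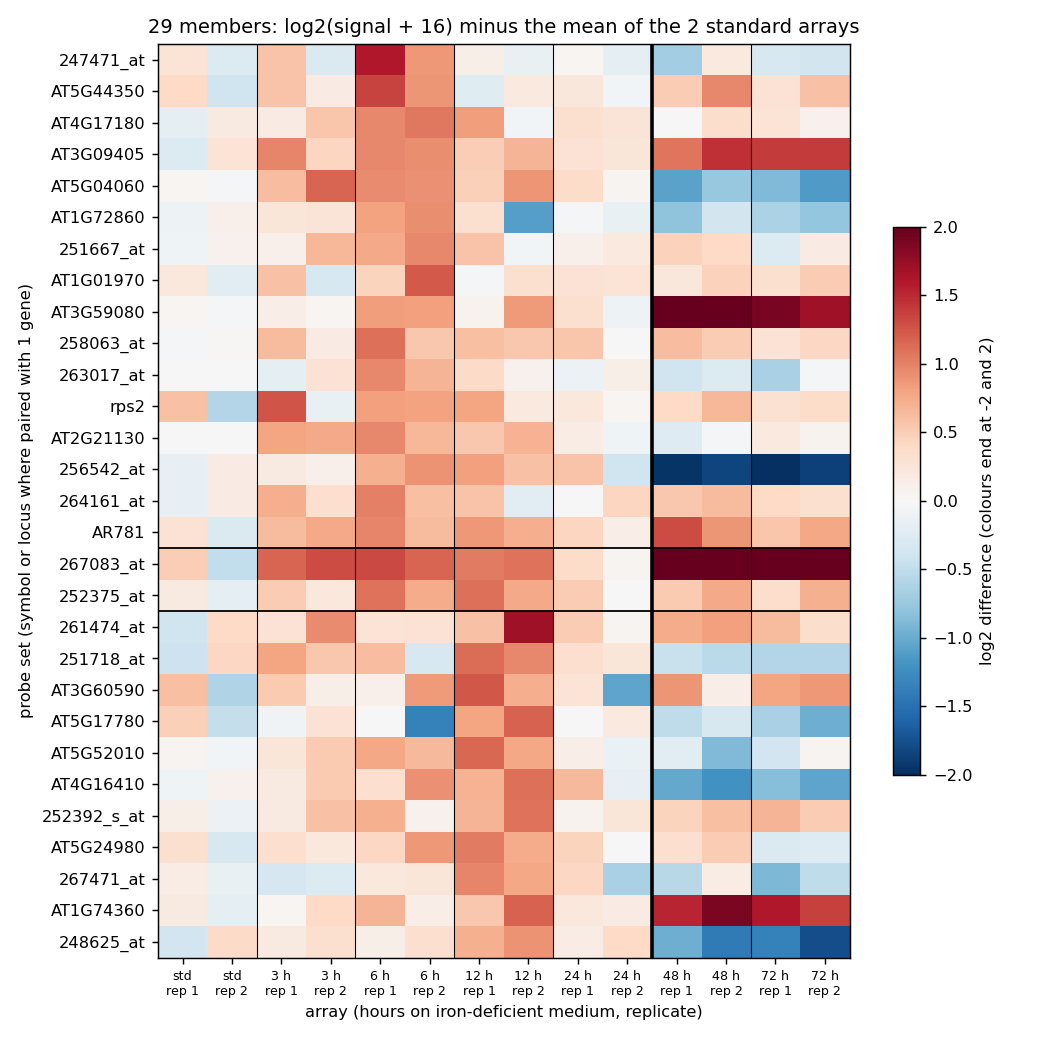
Heat map of the 29 members (rows) on the 14 arrays (columns, by hours and replicate), coloured by log2(signal + 16) minus the mean of the 2 standard arrays (std); colours end at -2 and 2, thin black lines part the groups, the thick vertical line parts the 2 array sets, and horizontal lines part members that met the conditions at 6 h only (top), at both times and at 12 h only (bottom). Red is densest at 6 and 12 h, and at 48 and 72 h some rows are deep red (267083_at, AT3G59080) and others deep blue (256542_at).

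The arrays of 3 h played no part in the choice of members, although any difference from standard medium shares the standard arrays with it. At 3 h, 28 of 29 members lay above the standard mean, with a median log2 difference of 0.36 beside 0.00 over all non-control probe sets, and the lone exception was 267471_at. Both arrays of 3 h were above both standard arrays in 15 of 29, beside 16.9% of all probe sets, and below them in 1 of 29, beside 16.6%. With limma 0 of the 26 tested were called higher, beside 0.022% of all. At an unadjusted p under 0.05 with limma 5 were higher, and the share of all probe sets at this cut was not counted. These counts at 3 h share the standard arrays with the choice of members and are given as a description. The 114 probe sets that met the same conditions at 6 or 12 h and stayed at least 0.8 above standard medium at 24 h had a median of 0.44 at 3 h, and the remaining 114 probe sets, between 0.3 and 0.8 at 24 h, had 0.45. Set against 3 h in place of standard medium, the rises were smaller. All 29 members were above the 3 h mean at their higher time, with a median log2 difference of 0.57, but 3 of them reached 0.8. Both arrays of 6 h or both of 12 h lay above both arrays of 3 h in 19 of 29, beside 29% of all probe sets. At 24 h, 25 of 29 were at or below their 3 h mean, with a median difference of -0.23. The members were chosen for high values at 6 or 12 h and low values at 24 h, so these differences from 3 h draw on the values that chose them and are given as a description.

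Among members with a part in signalling, AT1G74360 encodes a receptor kinase with leucine-rich repeats that takes part in the immune response to nematodes. AT1G74360 had signals of 109 and 81.4 on standard medium, 97.1 and 130.1 at 3 h, 161 and 106 at 6 h, 145 and 234 at 12 h, 112 and 107 at 24 h, 302 and 393 at 48 h, and 321 and 268 at 72 h. Both arrays of 12 h were above all arrays of standard medium, 3 h and 24 h, while at 6 h 1 of the 2 arrays lay within the standard range, and the 4 arrays of 48 and 72 h were the highest. Its log2 difference from standard medium was 0.22 at 3 h, 0.41 at 6 h, 0.86 at 12 h, 0.19 at 24 h, 1.71 at 48 h and 1.48 at 72 h. AT1G72860 encodes an intracellular immune receptor of the TIR-NBS-LRR class. AT1G72860 had signals of 45.2 and 54.9 on standard medium, 61.6 and 62.9 at 3 h, 99.3 and 109 at 6 h, 66.6 and 14.7 at 12 h, 47.9 and 43.5 at 24 h, 21.9 and 35.0 at 48 h, and 26.4 and 22.5 at 72 h. The 2 arrays of 6 h were the highest of all 14, and those of 12 h disagreed, with 1 of them the lowest of all 14. AR781 (AT2G26530), a gene induced by microbial elicitors whose biochemical function is not established, had signals of 157 and 101 on standard medium, 205 and 224 at 3 h, 264 and 205 at 6 h, 244 and 219.6 at 12 h, 177 and 141 at 24 h, 335 and 247 at 48 h, and 192 and 226 at 72 h. All 6 arrays of 3, 6 and 12 h were above both standard arrays, and the arrays of 24 h overlapped with the standard ones. On the log2 scale it stood at 0.69 at 3 h, 0.81 at 6 h, 0.80 at 12 h, 0.29 at 24 h, 1.095 at 48 h and 0.66 at 72 h, and its rise at 6 h was the one nearest to the limit.

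AT5G44350 is annotated as related to an ethylene-responsive nuclear protein. AT5G44350 had signals of 85.8 and 43.0 on standard medium, 99.3 and 70.6 at 3 h, 181 and 127 at 6 h, 49.3 and 72.3 at 12 h, 74.6 and 58.4 at 24 h, 94.3 and 135 at 48 h, and 79.0 and 100.5 at 72 h. The 2 arrays of 6 h were above those of standard medium, 3, 12 and 24 h, and both arrays of 12 h lay within the standard range. The log2 differences were 0.37 at 3 h, 1.12 at 6 h, -0.03 at 12 h, 0.08 at 24 h, 0.74 at 48 h and 0.44 at 72 h, the largest rise at 6 h among members with a gene name. AT5G52010 encodes a zinc finger protein of the C2H2 type. AT5G52010 had signals of 51.9 and 46.3 on standard medium, 60.5 and 77.0 at 3 h, 94.6 and 85.7 at 6 h, 128 and 94.6 at 12 h, 55.6 and 43.2 at 24 h, 39.9 and 19.3 at 48 h, and 33.8 and 51.4 at 72 h. All 6 arrays of 3, 6 and 12 h were above both standard arrays, the arrays of 6 and 12 h overlapped, and those of 24 h spanned the standard values. On the log2 scale the difference from standard medium was 0.38 at 3 h, 0.71 at 6 h, 0.96 at 12 h, 0.00 at 24 h, -0.55 at 48 h and -0.17 at 72 h.

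Members that act on RNA or protein included rps2, the plastid gene for protein S2 of the small ribosomal subunit. The signals of rps2 were 111 and 40.8 on standard medium, 188 and 61.0 at 3 h, 134 and 133 at 6 h, 131 and 81.0 at 12 h, 82.9 and 71.7 at 24 h, 96.6 and 119 at 48 h, and 88.8 and 93.7 at 72 h. Both arrays of 6 h were above both standard arrays. The 2 arrays differed more than 2-fold on standard medium and at 3 h, and the highest value of all was on 1 array of 3 h. AT1G01970 encodes a pentatricopeptide repeat protein, a class that binds organelle RNA. AT1G01970 had signals of 71.6 and 49.1 on standard medium, 97.7 and 44.5 at 3 h, 86.5 and 160.1 at 6 h, 58.2 and 78.0 at 12 h, 76.2 and 75.3 at 24 h, 71.9 and 87.8 at 48 h, and 78.6 and 91.2 at 72 h. The higher array of 6 h stood alone, and the other 13 arrays lay between 44.5 and 97.7. AT2G21130 encodes a cyclophilin, a prolyl isomerase that helps proteins fold. AT2G21130 had signals of 115 and 117 on standard medium, 211 and 206 at 3 h, 239.6 and 193 at 6 h, 175 and 198 at 12 h, 129 and 108 at 24 h, 93.8 and 112 at 48 h, and 136 and 122 at 72 h. The 6 arrays of 3, 6 and 12 h were above the other 8 with no overlap, so this gene was already at about its level of 6 h after 3 h. Its differences on the log2 scale were 0.77 at 3 h, 0.81 at 6 h, 0.62 at 12 h, 0.03 at 24 h, -0.15 at 48 h and 0.14 at 72 h. The probe set 252392_s_at, which matches AT3G47910 and AT3G47890 and cannot tell them apart, had signals of 124 and 102 on standard medium, 129 and 176 at 3 h, 194 and 119.6 at 6 h, 190.0 and 256 at 12 h, 118 and 135 at 24 h, 158 and 179 at 48 h, and 189 and 166 at 72 h. Both genes are annotated as related to ubiquitin hydrolases. The 2 arrays of 12 h were above both standard arrays, while 1 of the 2 arrays of 6 h lay within the standard range.

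Of the enzyme genes, AT4G17180 encodes a glycosyl hydrolase of the family that includes plant beta-1,3-glucanases. AT4G17180 had signals of 58.1 and 79.4 on standard medium, 78.0 and 107 at 3 h, 147 and 159 at 6 h, 135 and 64.6 at 12 h, 88.7 and 85.0 at 24 h, 68.0 and 91.0 at 48 h, and 86.1 and 73.2 at 72 h. Both arrays of 6 h were the highest of the 14, and at 12 h 1 array was high and the other within the standard range. On the log2 scale the values were 0.35 at 3 h, 1.01 at 6 h, 0.39 at 12 h, 0.29 at 24 h, 0.17 at 48 h and 0.18 at 72 h, and its value at 24 h was the closest to the limit of 0.3 among the members. AT3G09405 encodes a pectin acetylesterase, an enzyme that removes acetyl groups from cell wall pectin. AT3G09405 had signals of 45.1 and 73.0 on standard medium, 129.5 and 83.4 at 3 h, 127 and 125 at 6 h, 87.4 and 102 at 12 h, 73.8 and 71.0 at 24 h, 138 and 186 at 48 h, and 178 and 178 at 72 h. All arrays of 3, 6 and 12 h were above both standard arrays, the 2 arrays of 24 h overlapped with the standard ones, and all 4 of 48 and 72 h were above every earlier array. On the log2 scale it stood at 0.71 at 3 h, 0.95 at 6 h, 0.58 at 12 h, 0.26 at 24 h, 1.26 at 48 h and 1.396 at 72 h.

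AT5G04060 encodes a putative methyltransferase that uses S-adenosylmethionine. AT5G04060 had signals of 87.2 and 82.5 on standard medium, 139 and 209.5 at 3 h, 177 and 174 at 6 h, 124 and 170.4 at 12 h, 114 and 88.6 at 24 h, 32.0 and 43.5 at 48 h, and 38.7 and 30.0 at 72 h. The 6 arrays of 3, 6 and 12 h were above all others, the mean of 3 h was about that of 6 h, and the 4 arrays of 48 and 72 h were the lowest. In log2 terms it stood at 0.89 at 3 h, 0.92 at 6 h, 0.68 at 12 h, 0.21 at 24 h, -0.92 at 48 h and -1.01 at 72 h. AT3G59080 encodes a protease of the aspartyl type. AT3G59080 had signals of 53.2 and 49.3 on standard medium, 57.4 and 53.3 at 3 h, 104 and 103 at 6 h, 55.0 and 105 at 12 h, 68.2 and 46.6 at 24 h, 258 and 275 at 48 h, and 236 and 202 at 72 h. The 2 arrays of 6 h and 1 of 12 h were nearly equal and above all of standard medium, 3 h and 24 h, while the other array of 12 h was near the standard level. On the log2 scale it stood at 0.08 at 3 h, 0.83 at 6 h, 0.46 at 12 h, 0.11 at 24 h, 2.07 at 48 h and 1.80 at 72 h. AT5G17780 encodes a hydrolase of the alpha/beta fold class. AT5G17780 had signals of 68.2 and 27.5 on standard medium, 41.3 and 57.7 at 3 h, 45.0 and 7.81 at 6 h, 88.9 and 121 at 12 h, 44.2 and 53.1 at 24 h, 26.5 and 32.5 at 48 h, and 22.8 and 14.7 at 72 h. The 2 arrays of 12 h were the highest of the 14 and 1 array of 6 h was the lowest, so the mean of 6 h lay below that of standard medium. The log2 differences were 0.10 at 3 h, -0.67 at 6 h, 0.99 at 12 h, 0.09 at 24 h, -0.41 at 48 h and -0.81 at 72 h.

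**Figure D3:**
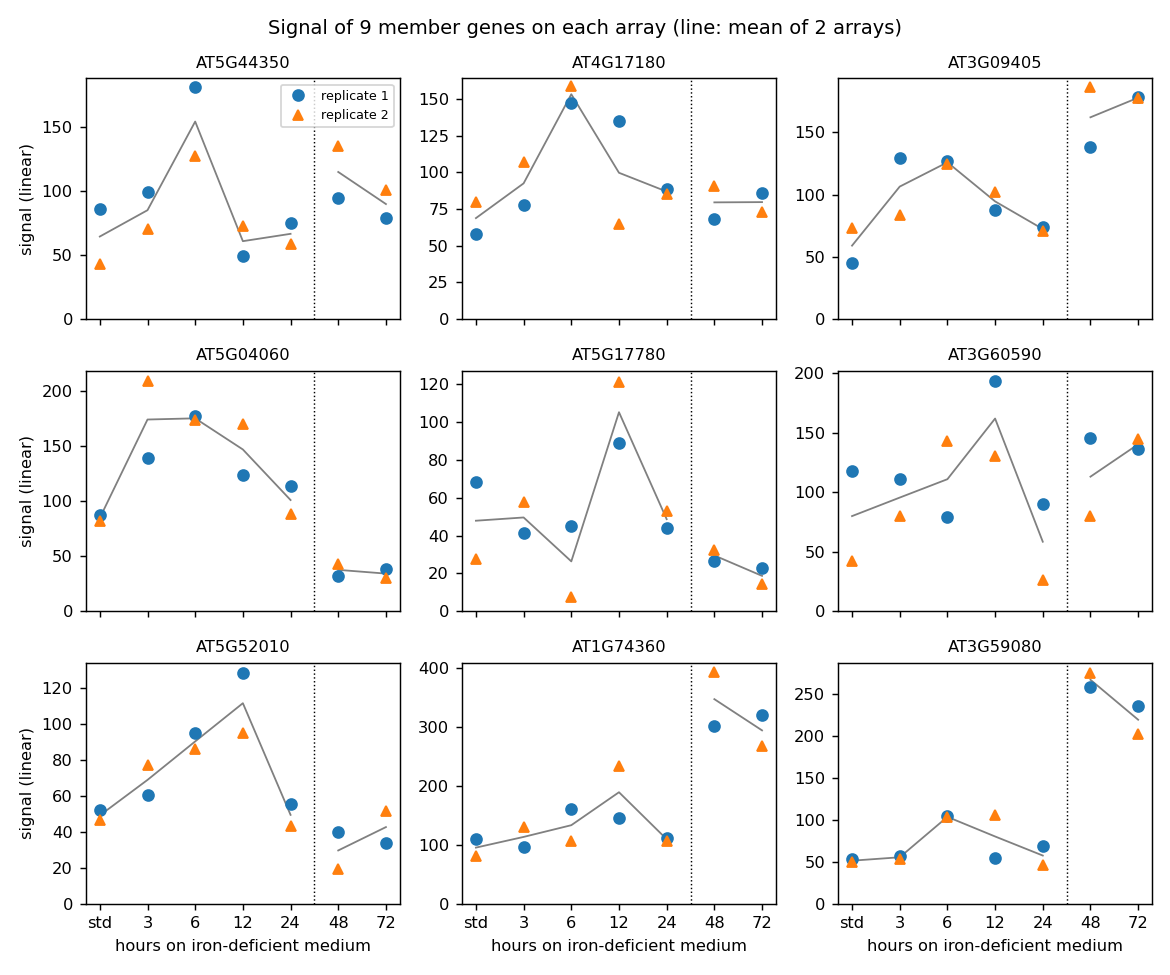
Signal (linear, vertical axes start at 0) of 9 member genes on each array by hours on iron-deficient medium, with circles for replicate 1, triangles for replicate 2 and a line through the mean of 2 arrays within each array set; std is standard medium and the dotted line parts the array sets. AT5G44350 and AT4G17180 are highest at 6 h, AT5G17780 and AT5G52010 at 12 h, and AT1G74360 and AT3G59080 at 48 h.

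For AT3G60590, AT4G16410 and AT5G24980 no role is given here, and all 3 met the conditions at 12 h only. AT3G60590 had signals of 118 and 42.2 on standard medium, 111 and 80.1 at 3 h, 79.0 and 143 at 6 h, 193 and 130.1 at 12 h, 90.4 and 26.5 at 24 h, 146 and 80.2 at 48 h, and 136 and 144 at 72 h. Its standard arrays differed more than 2-fold and those of 24 h more than 3-fold. AT4G16410 had signals of 54.2 and 62.9 on standard medium, 67.8 and 90.8 at 3 h, 78.0 and 124 at 6 h, 104 and 144 at 12 h, 101 and 50.6 at 24 h, 20.6 and 16.2 at 48 h, and 25.0 and 19.9 at 72 h. Its 2 arrays of 12 h were above both standard arrays, 1 array of 24 h was nearly as high, and the 4 arrays of 48 and 72 h were the lowest. AT5G24980 had signals of 84.3 and 47.7 on standard medium, 84.7 and 76.2 at 3 h, 90.3 and 131 at 6 h, 148 and 117 at 12 h, 92.8 and 64.2 at 24 h, 84.8 and 98.2 at 48 h, and 49.4 and 51.2 at 72 h. Its 2 arrays of 12 h were above both standard arrays, and so were those of 6 h.

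Among the 12 probe sets with no gene in the table used, 267083_at had the largest difference at 6 h. Its signals were 274 and 131 on standard medium, 449 and 494 at 3 h, 503 and 446 at 6 h, 411 and 423 at 12 h, 249.9 and 198 at 24 h, 2225 and 1644 at 48 h, and 1695 and 1191 at 72 h. The 6 arrays of 3, 6 and 12 h were all above the standard arrays, both arrays of 24 h lay within the standard range, and the 4 later arrays were the highest. In log2 terms it stood at 1.24 at 3 h, 1.24 at 6 h, 1.07 at 12 h, 0.21 at 24 h, 3.22 at 48 h and 2.80 at 72 h, so its rise at 3 h was as large as at 6 h. The probe set 261474_at had signals of 228 and 409 on standard medium, 378 and 601 at 3 h, 372 and 377 at 6 h, 465 and 1028 at 12 h, 443 and 318 at 24 h, 524 and 550.3 at 48 h, and 482 and 394 at 72 h. Its rise at 12 h rested largely on 1 of the 2 arrays. The probe set 247471_at had signals of 49.2 and 28.4 on standard medium, 63.9 and 28.0 at 3 h, 147 and 81.9 at 6 h, 42.5 and 32.6 at 12 h, 39.4 and 30.8 at 24 h, 17.2 and 45.5 at 48 h, and 27.2 and 25.7 at 72 h. Here the 2 arrays of 6 h were the highest of the 14.

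The probe set 251718_at had signals of 33.2 and 70.8 on standard medium, 97.6 and 79.0 at 3 h, 84.4 and 36.2 at 6 h, 126 and 112 at 12 h, 66.3 and 61.0 at 24 h, 31.8 and 28.9 at 48 h, and 27.6 and 27.8 at 72 h. Both arrays of 12 h were the highest of the 14. The signals of 252375_at, which met the conditions at 6 and at 12 h, were 87.8 and 64.8 on standard medium, 114 and 90.0 at 3 h, 179 and 137 at 6 h, 181 and 139.7 at 12 h, 114 and 74.9 at 24 h, 116 and 139.8 at 48 h, and 101 and 134 at 72 h. At both times its 2 arrays were above the standard arrays. The probe set 256542_at had signals of 98.3 and 127 on standard medium, 128 and 121 at 3 h, 194 and 222 at 6 h, 209.7 and 177 at 12 h, 174 and 81.4 at 24 h, 16.9 and 19.7 at 48 h, and 14.5 and 19.2 at 72 h. The 4 arrays of 6 and 12 h were the highest and the 4 of 48 and 72 h the lowest by far. The probe set 248625_at, one of the 2 members with the highest signal on standard medium, had signals of 552 and 952 on standard medium, 822 and 913 at 3 h, 789.7 and 920.0 at 6 h, 1200.1 and 1360.3 at 12 h, 801 and 963 at 24 h, 362 and 261 at 48 h, and 275 and 201 at 72 h. The 2 arrays of 12 h were the highest and the 4 later ones the lowest.

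The other strongly expressed member, 251667_at, had signals of 1020.1 and 1158 on standard medium, 1172 and 1737 at 3 h, 1847 and 2119.9 at 6 h, 1617 and 1051 at 12 h, 1166 and 1240.3 at 24 h, 1510.2 and 1436 at 48 h, and 893 and 1222 at 72 h. Both arrays of 6 h were above all others. The probe set 267471_at had signals of 92.5 and 72.0 on standard medium, 61.8 and 64.8 at 3 h, 97.4 and 100.1 at 6 h, 177 and 152 at 12 h, 114 and 46.2 at 24 h, 50.3 and 92.9 at 48 h, and 36.2 and 53.0 at 72 h. Its arrays of 12 h were the highest and both of its arrays of 3 h were below both standard arrays. The 3 members not yet described, 258063_at, 263017_at and 264161_at, all met the conditions at 6 h only. Their log2 differences there were 0.82, 0.82 and 0.81, and stood at 0.27, 0.00 and 0.22 at 24 h.

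The edges of the group were narrow. At 6 h the lowest rise inside was 0.81 (AR781), and the highest outside was 0.79 (AT5G22340), followed by 0.76 in 259042_at and in 261139_at. At 12 h the lowest inside was 0.80 (248625_at) and the highest outside were 0.79 (AT4G29590), 0.78 (AT2G04620) and 0.77 (YLS5). At 24 h the highest inside were 0.29 (AT4G17180 and AR781) and 0.28 (261474_at), and the lowest outside were 0.30 (250259_at), 0.31 (AT1G21790) and 0.32 (AT5G66000). In mean signal, AT3G59080 was lowest inside at 103 and 255566_s_at highest outside at 98.5.

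Membership depended on single arrays. With 1 array of standard medium, 6, 12 or 24 h left out in turn, the number of probe sets that met the conditions was between 26 and 127, and 0 of the 29 members met them in all 8 cases. Without standard replicate 1, 11 of the 29 were among the 37 that met them, and without standard replicate 2, 9 of 29 were among 30. Without 1 array of 6 or 12 h, the number was 58 to 127, and 23 to 25 of the 29 were among them. The array left out no longer has to lie above both standard arrays, which makes the conditions easier to meet. With the 3 h arrays as the baseline, 18 probe sets met the conditions, of which 3 were members, 247471_at, AT5G17780 and 267471_at. With each array centred on its median 16 did, all of them members, and with a pseudocount of 64 in place of 16, 4 did, of which 3 were members.

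**Figure D4:**
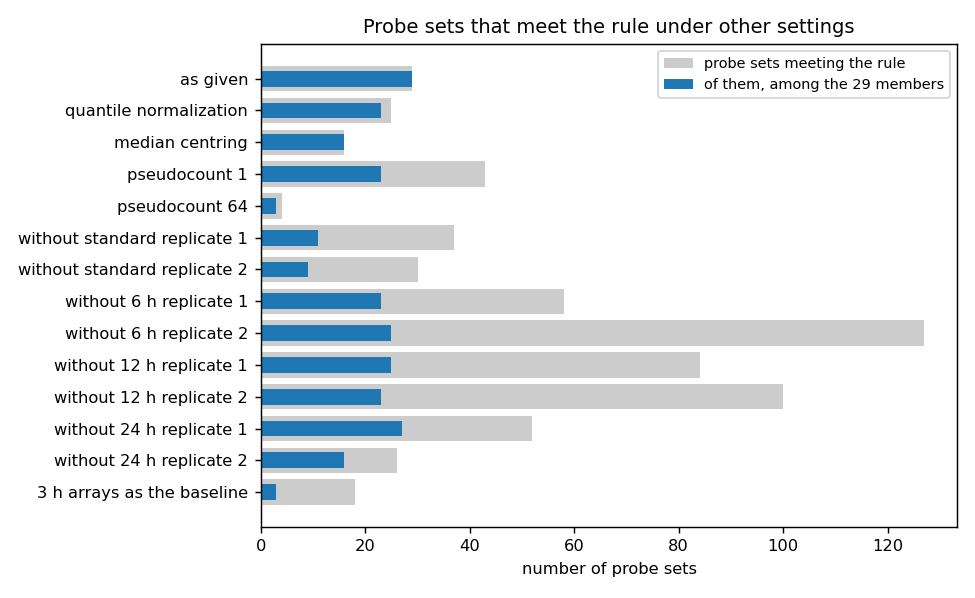
Number of probe sets that met the conditions (grey bars) and, of them, the number among the 29 members (blue bars), for the conditions as given and under 13 other settings (rows). The grey bars run from 4 with a pseudocount of 64 to 127 without replicate 2 of 6 h, and the blue bar is down to 9 without standard replicate 2 and to 3 with the 3 h arrays as the baseline.

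The arrays of 3, 48 and 72 h were not used to choose the members, so differences among them do not draw on the values that chose them. The filter on low signal and the error variance of the fit were taken over all 14 arrays, which include those that chose the members. Between 48 h and 3 h members were called in both directions, as were other probe sets. Whether the members' shares differ from those of all probe sets was not tested. Of the 26 tested with limma, 3 were called higher at 48 h, beside 14.6% of all probe sets tested, and 7 were called lower, beside 15.9%, which makes 11.5% and 26.9% of the tested members. At 72 h, 4 were higher and 6 lower than at 3 h, or 15.4% and 23.1% of them, beside 17.416% and 17.797% of all probe sets tested. Of the members called, 9 were called at both times, and both comparisons share the 3 h arrays. The share of all probe sets called at both times was not counted. These comparisons cross the array sets.

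The members higher at 48 h were the aspartyl protease gene AT3G59080, the receptor kinase gene AT1G74360 and 267083_at. AT3G59080 had a mean signal of 267 ± 11.8 at 48 h against 55.3 ± 2.84 at 3 h (SD, n = 2 each), a log2 difference of 1.99 ± 0.26 (SE) with a limma adjusted p of 8.45e-06. AT1G74360 had a mean signal of 348 ± 64.3 at 48 h against 114 ± 23.3 at 3 h (SD, n = 2 each), a log2 difference of 1.49 ± 0.26 (SE) with a limma adjusted p of 0.000157. 267083_at had a mean signal of 1934 ± 411 at 48 h against 471 ± 32.4 at 3 h (SD, n = 2 each), a log2 difference of 1.99 ± 0.25 (SE) with a limma adjusted p of 4.77e-06. At 72 h the same 3 members were again higher than at 3 h, by 1.72, 1.27 and 1.56 on the log2 scale, with adjusted p of 3.91e-05, 0.000627 and 6.73e-05. The pectin acetylesterase gene AT3G09405 joined them at 72 h, with a log2 difference of 0.69 ± 0.26 (SE) and an adjusted p of 0.0426. This call was lost under 10 of 23 alternatives, and without replicate 2 of 3 h the difference was 0.41 with an adjusted p of 0.326.

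The members lower at 48 h were the methyltransferase gene AT5G04060, the cyclophilin gene AT2G21130, the zinc finger gene AT5G52010, AT4G16410, 256542_at, 248625_at and 251718_at. AT5G04060 had a mean signal of 37.7 ± 8.12 at 48 h against 174 ± 49.9 at 3 h (SD, n = 2 each), a log2 difference of -1.81 ± 0.26 (SE) with a limma adjusted p of 2.37e-05. AT2G21130 had a mean signal of 103 ± 12.6 at 48 h against 208 ± 3.2 at 3 h (SD, n = 2 each), a log2 difference of -0.92 ± 0.21 (SE) with a limma adjusted p of 0.00203. AT4G16410 had a mean signal of 18.4 ± 3.12 at 48 h against 79.3 ± 16.2 at 3 h (SD, n = 2 each), a log2 difference of -1.46 ± 0.32 (SE) with a limma adjusted p of 0.00173. All 3 genes had both arrays of 48 h below both of 3 h, which adds little for genes already called lower. That held for 10 of 29 members, and 7 of 29 had both arrays above. The share of all probe sets for this comparison is not given here. The differences of 256542_at, 248625_at, 251718_at and AT5G52010 were -2.04, -1.45, -1.16 and -0.93, with adjusted p of 1.67e-05, 6.5e-05, 0.0124 and 0.0277. At 72 h all but AT5G52010 were again lower than at 3 h, from -2.10 in 256542_at to -0.63 in AT2G21130, and AT5G52010 was at -0.54 with an adjusted p of 0.183. The call of AT5G52010 at 48 h was lost without replicate 2 of 3 h (adjusted p = 0.148), without replicate 2 of 48 h (0.294, with a difference of -0.59), after quantile normalization (0.0864) and without the filter (0.063). That of 251718_at was lost without replicate 1 of 3 h at both times (0.0864 and 0.0567) and without either replicate of 48 h (0.0575 and 0.0767 at 48 h), and that of AT2G21130 at 72 h was lost without any 1 of the 4 arrays compared (0.0676 to 0.134).

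The remaining 16 tested members were at -0.38 to 0.55 at 48 h against 3 h and were not called, which with standard errors of 0.21 to 0.41 does not show that they were level. The 3 members below the filter on low signal, 247471_at, AT5G17780 and AT1G72860, were not tested. Among the 114 probe sets that stayed high at 24 h, 67 were called higher at 48 h than at 3 h and 11 lower, or 58.8% and 9.65%, a difference from the members that was not tested. Markers of green tissue moved with these comparisons. The summed signal of RCA and LHCB4.1, the 2 measured of 5 such markers, was 122 to 126 at 48 h and 81.2 to 102 at 72 h, against 700 to 764 at 3 h, and both probe sets were called lower at 48 and at 72 h than at 3 h. The 2 root hair markers were also called lower at both times, with a sum of 406 to 428 at 48 h and 185 to 246 at 72 h, against 1387 to 1598 at 3 h. Their part in the members' values was not tested.

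**Figure D5:**
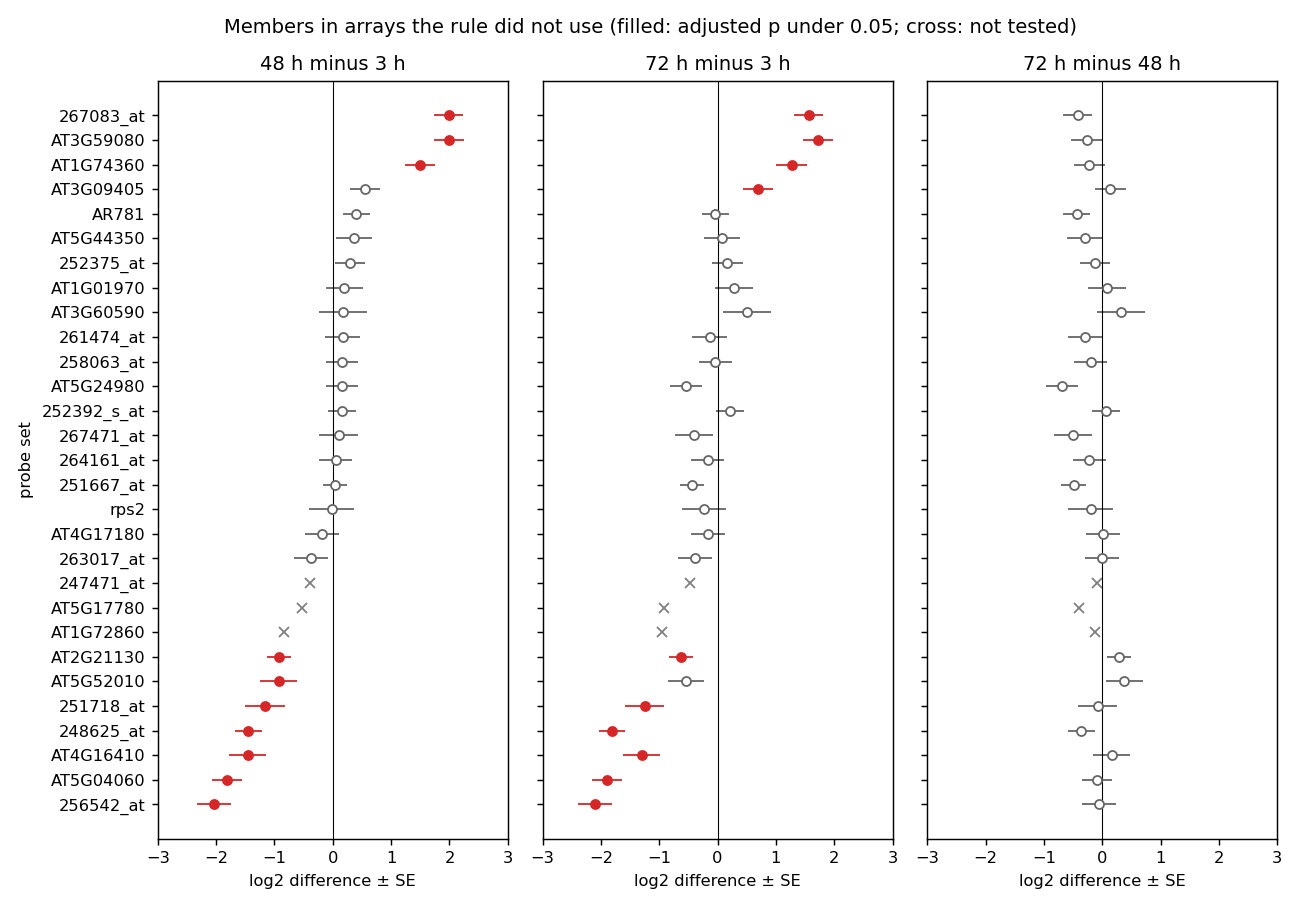
Log2 difference with its standard error (horizontal axes) of each of the 29 members (rows, sorted by the first panel) between arrays that the choice of members did not use, at 48 h minus 3 h, 72 h minus 3 h and 72 h minus 48 h; filled red circles have an adjusted p under 0.05, open circles do not, and crosses are members below the filter. In the first panel 3 members are called above 0 and 7 below, in the second 4 and 6, and in the third none of the 26 tested.

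Between 72 h and 48 h, which lie in one array set, 0 of the 26 tested members were called with limma in either direction, beside 0.00733% of all probe sets tested called higher and 0.00733% called lower. At an unadjusted p under 0.05 with limma, 0 were higher and 2 lower, and the share of all probe sets at this cut was not counted. The 2 lower ones were AT5G24980, at -0.69 ± 0.28 (adjusted p = 0.954), and 251667_at, at -0.49 ± 0.21 (adjusted p = 1). In the fit of the 4 arrays alone the count of called members was also 0, beside 23 higher and 28 lower of all 13648 probe sets tested. The differences of the 26 ranged from -0.69 to 0.38, and their standard errors from 0.21 to 0.41. Of all 29 members, 21 were lower at 72 h than at 48 h, with a median difference of -0.12 beside 0.00 over all tested probe sets. All members share the same 4 arrays, and this count was not tested. Both arrays of 72 h lay below both of 48 h in 10 of 29, beside 17.2% of all probe sets, and above in 1 of 29, beside 18.7%.

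Against standard medium, 5 of the 26 tested members were called higher at 48 h and 4 lower, beside 15.9% and 15.6% of all probe sets tested. At 72 h the counts were also 5 and 4, beside 18.34% and 17.592%. These differences share the standard arrays with the choice of members and cross the array sets, so they are given as a description. The 5 higher members were the same at both times. They were 267083_at (3.22 at 48 h and 2.80 at 72 h), AT3G59080 (2.07 and 1.80), AT1G74360 (1.71 and 1.48), AT3G09405 (1.26 and 1.396) and AR781 (1.095 and 0.66). For these 5 members the mean at 48 h was above those at 6 and 12 h. The 4 lower members were also the same, 256542_at (-1.90 and -1.96), 248625_at (-1.197 and -1.56), AT4G16410 (-1.12 and -0.96) and AT5G04060 (-0.92 and -1.01).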

How the data were processed

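Each of the 14 arrays holds the RNA of 1 sample, labelled with biotin after one-cycle amplification per the labels' protocols. MAS5 is the tool given in the submitters' processing notes, and the deposited file holds its linear signal intensity for every probe set. Once the lowest and highest 2% of probe sets are set aside, all arrays share one mean, and that scaling was kept. Of 22810 probe sets, 64 control probe sets were left out. The platform table paired 13513 with 1 gene, 503 with several and 8794 with none, and RefSeq's gene table (TAIR10.1) gave loci and symbols.

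Values were analysed as log2(signal + 16), which understates changes of low signals. After a filter at the 40th percentile of mean level (a signal of 49.6), 13648 probe sets were tested with limma 3.58.1 (R 4.3.3), fitting 7 group means with 7 residual degrees of freedom and a mean-variance trend. Benjamini-Hochberg adjustment was done within each comparison. The fit was tested on simulated data. Alternatives were another scaling, pseudocount, filter and baseline, a replicate block, and leaving out each array. The members, gene lists and tests were chosen with earlier results of these data known. All members with a gene were named, as were probe sets next to a threshold, and signals per array were given for more members than the naming rule asked. With 2 arrays a group, precision is low.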

Additional observations from a re-analysis of the deposited data

How the results depend on the processing

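The number of probe sets that met the conditions was 29 as given, 25 after quantile normalization, 16 after median centring, 43 with a pseudocount of 1, 4 with a pseudocount of 64, and 18 with the 3 h arrays as the baseline. With 1 array left out in turn it was 26 to 127. The count of members called at 48 h against 3 h was 10, and 8 to 10 with 1 array left out. Of all 13648 probe sets tested, 1216 to 2114 were then called higher and 1447 to 2264 lower. At 72 h against 3 h the count of members was 10, and 8 to 10, beside 1494 to 2512 and 1751 to 2516 of all. With a filter at the 60th percentile, where 8 members were tested, 4 were called in each of these comparisons, since fewer members were tested. Of all 9099 probe sets then tested, 1609 were called higher and 1651 lower at 48 h, and 1915 and 1830 at 72 h. At 72 h against 48 h the count of members called was 0 under all alternatives run. Over the alternatives of the 20 single calls of members, 446 values kept the call, 22 lost it and 0 changed sign, and the cause of the losses was not tested. Leaving out an array outside a comparison cannot change its log2 difference, so many of the kept calls say little about stability.

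Replicate numbers were not used to pair the arrays in the main fit. The correlation of same-numbered deviations was -0.143 to 0.266 over 21 pairs of groups and over 0.1 in 4 of them. These values cannot show whether same-numbered arrays were handled together. With the replicate number as a block, 10, 10 and 0 members were called at 48 h against 3 h, at 72 h against 3 h and at 72 h against 48 h. Over all 13648 probe sets tested, 2104 were called higher and 2217 lower in the first comparison. In the second these counts were 2470 and 2508, and in the third 3 and 4.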
